A study of Mus musculus with 574 samples.

Results

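In mouse marrow, 161 of 500 single granulocyte/macrophage progenitors (GMPs) carried transcripts of both Irf8 and Gfi1 at 10 CPM or more. CPM, the usual library-scaled read count, divides a gene's reads by the cell's total reads in genes. The cells were chosen by these levels alone, among cells kept at a minimum of 50000 reads in genes and of 1000 detected genes. They are called both-gene cells here and were set against 194 cells in which only Irf8 reached 10 CPM (Irf8-only cells) and 82 in which only Gfi1 did (Gfi1-only cells). In the other 63 cells neither gene reached it. Since Irf8 and Gfi1 chose the cells, their own levels are a description and carry no test.

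Irf8 encodes an interferon regulatory factor that drives monocyte and dendritic cell development and holds back granulocyte production. Gfi1 encodes a zinc-finger repressor that neutrophil development needs and that keeps monocyte genes low. GMPs give rise to both lineages, and the pair is known in them as opposing regulators whose balance goes with the choice between monocyte and neutrophil.

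The study asked how GMPs change after 5-fluorouracil (5-FU), a drug that kills dividing cells. Wild-type C57Bl/6 mice of 6 to 12 weeks of age received 5-FU once at 150 mg/kg or PBS, and marrow was taken on days 0, 8, 10, 12 and 14. There was 1 set of cells for each day and 2 for day 8. GMPs were sorted 1 to a well, after enrichment for c-Kit, as cells negative for lineage markers and Sca-1 and positive for c-Kit, CD34 and the Fcγ receptor, and read with the full-length Smart-seq2 protocol, which uses no molecular identifiers. All cells are labelled as 5-FU treated, those of day 0 included. The protocol does not say whether day 0 mice had received PBS, nor which sets came from crushed and which from flushed bones. Nor does it state how many mice gave each set. The p-values here therefore measure the spread between sets, which may be technical. In the comparisons of days they rest mainly on a spread pooled over genes.

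Day 0 gave 30 both-gene cells, day 8 gave 22 (first set) and 24 (second set), day 10 gave 42, day 12 gave 28 and day 14 gave 15. Their reads in genes summed to between 1819074 on day 14 and 12963546 on day 10. The sort markers were present: Kit had a read in 95.7% of both-gene cells, Cd34 in 97.5% and Fcgr3 in 98.1%, and Ly6a, which encodes Sca-1, in 32.9%. Xist, the RNA of the silenced X chromosome of females, had a read in 90% and 96.4% of both-gene cells on days 0 and 12, against 9.09% and 20.8% for day 8, 7.14% for day 10 and 0% for day 14. The Y-linked Eif2s3y or Kdm5d had one in 20% for day 0, 86.4% and 87.5% for day 8, 95.2% for day 10, 21.4% for day 12 and 60% for day 14. Days 0 and 12 had much the same shares. Day and sex therefore cannot be told apart in comparisons of these days with days 8, 10 and 14. A single gene, the phosphate transporter Slc34a2, held 8.38% to 24% of the reads of both-gene cells (medians by set).

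Both-gene cells made up 32.6% of kept cells on day 0 (exact 95% binomial interval 23.2 to 43.2%). The day 8 sets held 24.4% (16 to 34.6%) and 25.8% (17.3 to 35.9%). For day 10 the share was 45.2% (34.8 to 55.8%), on day 12 it was 32.9% (23.1 to 44%) and on day 14 it was 31.9% (19.1 to 47.1%). Day 10 had the highest share and day 8 the lowest. The intervals of day 10 and the first day 8 set do not overlap, and all other pairs of intervals do. That separation held at 5 CPM but not in cells thinned to 50000 reads before classing. After thinning, day 10 had 37.6% (27.8 to 48.3%) and the first day 8 set 21.1% (13.2 to 31%), which overlap. The intervals of these sets also overlap at 20 CPM and with at least 3 reads of each gene required. Intervals cover counting error only. The product of the shares of cells with Irf8 and with Gfi1, which is the share that independent calls would give, was 35.9% for day 0, 27.5% and 25.5% for the day 8 sets, 47.3% for day 10, 34.9% for day 12 and 32.7% for day 14. In 5 of 6 sets the observed share lay below that product, with odds ratios of 0.347 to 0.815. In the second day 8 set it lay above, with an odds ratio of 1.05. The direction depends on the threshold: at 5 CPM the first day 8 set and days 10 and 14 had odds ratios above 1 (1.17, 1.20 and 1.09), and at 20 CPM all 6 sets lay below 1 (0.262 to 0.812). Without Slc34a2 the second day 8 set and day 14 lay above 1 (1.35 and 1.16). Here and below, this setting took Slc34a2 and any row of CT010467.1 out of the counts and classed the cells anew.

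**Figure D1:**
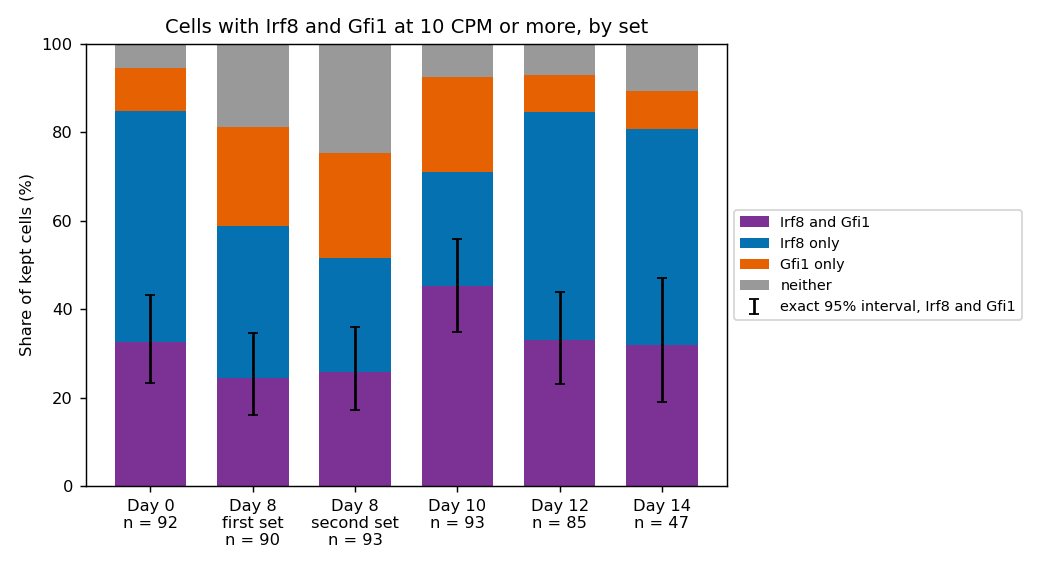
Share of kept cells in each of 4 classes of Irf8 and Gfi1 (10 CPM or more of both, of 1 or of neither), by set, in percent. Error bars are exact 95% binomial intervals of the both-gene share, which is 24.4% and 25.8% in the day 8 sets and 45.2% on day 10.

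The share depends on the threshold. At 5 CPM for both genes 211 cells (42.2%) qualified, at 20 CPM 103 cells (20.6%), and with at least 3 reads of each gene on top of 10 CPM 127 cells (25.4%). In 35 both-gene cells the lower of the genes lay between 10 and 15 CPM, and another 46 cells had it between 5 and 10 CPM. The members nearest the threshold had 10.1 and 10.2 CPM of their lower gene, and the nearest cells outside had 9.92 and 9.87 CPM. In 34 both-gene cells, 1 of the genes rested on fewer than 3 reads. Of the 194 Irf8-only cells, 154 had 0 Gfi1 reads and 35 had 1 or 2. Of the 82 Gfi1-only cells, 30 had 0 Irf8 reads and 48 had 1 or 2. Irf8 was thus read at all in 63.4% of Gfi1-only cells, and Gfi1 in 20.6% of Irf8-only cells.

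Both genes varied widely among the cells that had them. Irf8 ranged between 10.1 and 3310 CPM with a median of 84.3 CPM, and Gfi1 between 10.2 and 638 CPM with a median of 45.3 CPM. The median of Irf8 was 377 CPM in Irf8-only cells, and that of Gfi1 was 83.1 CPM in Gfi1-only cells. Median Irf8 by set was 125 CPM (day 0), 78.2 and 41.9 CPM (day 8), 117 CPM (day 10), 47.4 CPM (day 12) and 384 CPM (day 14). Median Gfi1 was 32.5, 39.9, 33.6, 42.6, 73 and 68.9 CPM in that order. Irf8 exceeded Gfi1 in 95 of the 161 cells (59%), by a median of 1 on the log2 scale over all of them. In 39 cells the genes lay within a log2 difference of 1, in 59 Irf8 was over 4 times as high, and in 27 Gfi1 was. Spearman's rho between the genes over both-gene cells was −0.29, and −0.39 to −0.17 within the sets. The points share their cell's total, and the thresholds shape the range.

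**Figure D2:**
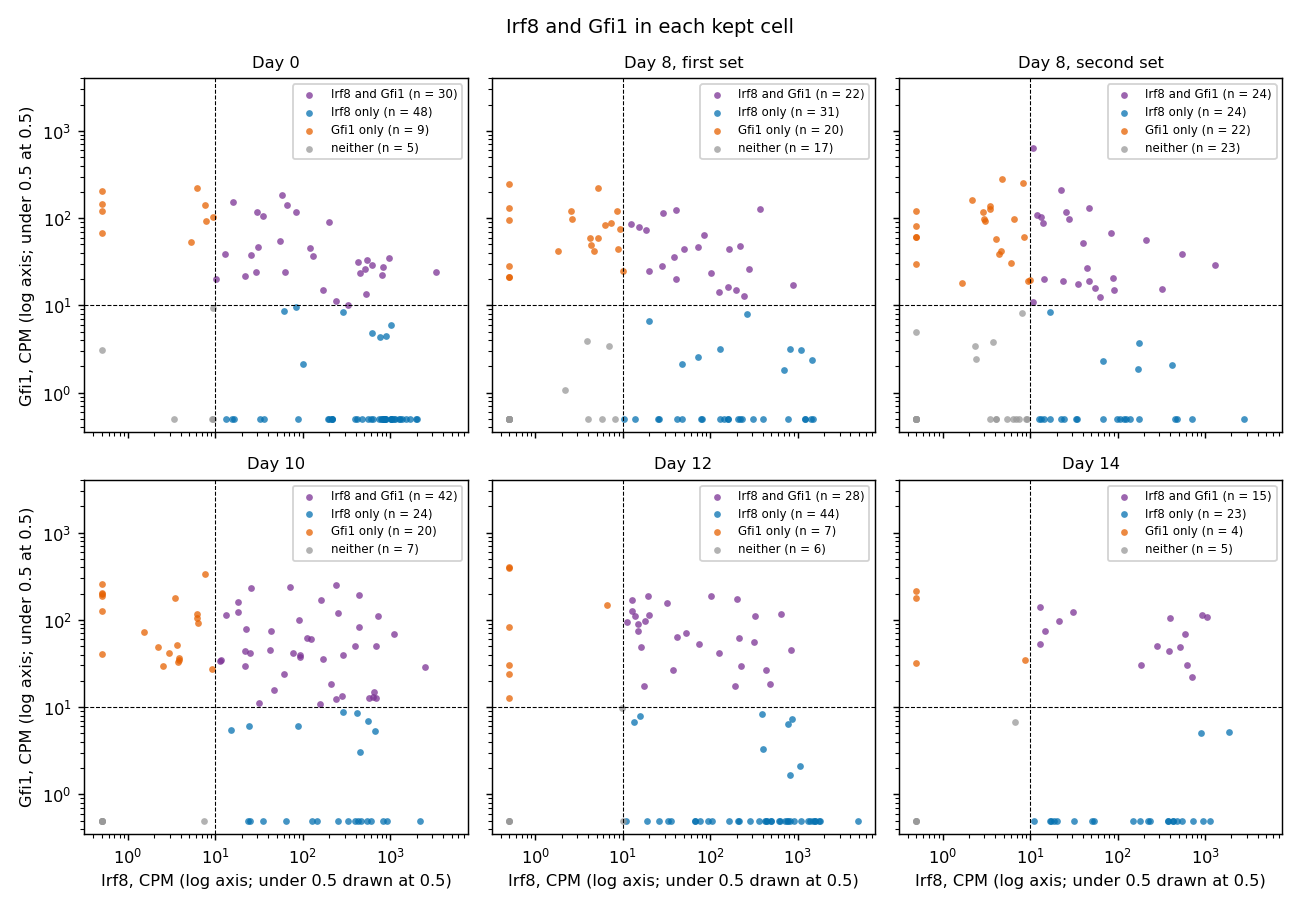
Irf8 and Gfi1 in each kept cell, in CPM on log axes, 1 panel a set, with dashed lines at 10 CPM. Both-gene cells (upper right) reach 3310 CPM of Irf8 and 638 CPM of Gfi1.

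Both-gene cells had more reads in genes than Irf8-only cells in every set, a difference that did not pass the adjusted test. Their median reads in genes, over the 6 sets, lay between 91172 and 391614, against 65939 to 314004 in Irf8-only cells, a ratio of 1.28 that was above 1 in 6 of 6 sets. An exact two-sided sign-flip permutation test over sets gave p = 0.03125, the smallest it can give with 6 sets, and 0.09375 after Benjamini-Hochberg adjustment over 6 tests. Genes with a read were 1.08 times as many (6 of 6 sets, exact p = 0.03125, adjusted 0.09375), and 1.03 times after thinning each cell to 50000 reads. With both genes at 20 CPM the ratio of reads was 1.18 (4 of 6 sets, exact p = 0.156, adjusted 0.4375), and that of genes after thinning 1.001. Against Gfi1-only cells the ratio of reads in genes was 0.975 (higher in 2 of 6 sets, exact p = 0.719, adjusted 0.906). Reads in genes per spike-in read, a measure of RNA per cell, were 1.11 times those of Irf8-only cells (4 of 6 sets, exact p = 0.344, adjusted 0.688) and 1.02 times those of Gfi1-only cells (2 of 6 sets, exact p = 0.844, adjusted 0.906).

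Against Irf8-only cells, both-gene cells held less F13a1 and more Pglyrp1, Rgcc and Srgn. F13a1 encodes the A subunit of coagulation factor XIII, a product of the monocyte lineage. Pglyrp1 encodes a peptidoglycan recognition protein of neutrophil granules, Srgn encodes serglycin, the proteoglycan core of secretory granules, and Rgcc a regulator of the cell cycle. To test this, counts of the cells of a class were summed within each set and compared with edgeR's quasi-likelihood test. In such sums, fewer expressing cells and less RNA per cell cannot be told apart. A term for the set took out differences between days, and p-values were adjusted by Benjamini-Hochberg over 12632 genes. At an adjusted p under 0.05 these were the only calls, 3 higher (0.0237% of genes tested) and 1 lower (0.00792%). At an unadjusted p under 0.05 there were 749.

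F13a1 (chr13:36867178-37050244, minus strand, GRCm38) had a lowest, median and highest level over the 6 sets of 80.3, 181 and 262 CPM in both-gene cells and 189, 488 and 691 CPM in Irf8-only cells. The ranges overlap between sets, but both-gene cells were lower in each of the 6. The fall was −1.39 on the log2 scale (SE 0.21, edgeR adjusted p = 0.0495). Pglyrp1 (chr7:18871331-18890459, plus strand) had 60.3, 81.4 and 121 CPM in both-gene cells and 14.2, 26.3 and 48.5 CPM in Irf8-only cells, ranges that do not overlap. Its log2 fold change was 1.67 (SE 0.26, adjusted p = 0.0495). Rgcc (chr14:79288756-79301645, minus strand) had 145, 201 and 344 CPM in both-gene cells and 72.2, 119 and 139 CPM in Irf8-only cells, again without overlap (log2 fold change 0.98, SE 0.13, adjusted p = 0.0276). Srgn (chr10:62493833-62527451, minus strand) had 1143, 2010.0 and 2591 CPM in both-gene cells and 879, 1353 and 1806 CPM in Irf8-only cells. Its ranges overlap, and it was higher in 6 of 6 sets (log2 fold change 0.55, SE 0.08, adjusted p = 0.0321).

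These 4 calls were near the threshold. With any 1 set left out, F13a1, Pglyrp1 and Srgn missed it, with log2 fold changes of −1.51 to −1.17 for F13a1, 1.48 to 1.88 for Pglyrp1 and 0.49 to 0.60 for Srgn, while Rgcc passed only without day 0 (0.86 to 1.08). The number of reads in genes moves with this comparison, and its part in the calls was not tested. With sums of cells thinned to 50000 reads there were 31 calls. With the cells classed after thinning there were 0, and in the deep cells defined below also 0. The settings that change depth thus went different ways.

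Against Gfi1-only cells the contrast was wider: 29 genes were higher in both-gene cells (0.23% of those tested) and 6 lower (0.0475%), with 1015 at an unadjusted p under 0.05. Of the 29 higher genes, 7 are on the list of monocyte and macrophage priming genes. Ly86, which encodes the MD-1 protein of myeloid and B cells, had 130.4, 12.2, 5.20, 22, 44.6 and 121 CPM in both-gene cells of day 0, both day 8 sets and days 10, 12 and 14. In Gfi1-only cells it had 4.35, 0.144, 0.134, 0.132 and 2.33 CPM in the 5 sets with at least 5 such cells, which leave out day 14. Both-gene cells were higher in all 5 sets, by 5.43 on the log2 scale (SE 0.51, adjusted p = 0.000384). In all, 65 of 161 both-gene cells had a read of Ly86, against 7 of 82 Gfi1-only cells, which held 13 reads together.

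F13a1 averaged 179 ± 75.6 CPM in both-gene cells (SD, n = 6 sets) and 29.1 ± 8.33 CPM in Gfi1-only cells (n = 5 sets), with no overlap. Its log2 fold change was 2.45 (SE 0.25, edgeR adjusted p = 0.000528). It thus lay between the single-gene classes and differed from each. Ctss, the lysosomal protease cathepsin S, had 8.09 to 47.8 CPM in both-gene cells and 0 to 2.28 CPM in Gfi1-only cells (log2 fold change 4.04, SE 0.53, adjusted p = 0.00639). The chemokine receptor gene Ccr2 had 47.8 to 196 CPM in both-gene cells and 12.6 to 31.4 CPM in Gfi1-only cells (2.27, SE 0.32, adjusted p = 0.00928). Csf1r, the receptor for macrophage colony-stimulating factor, had 17.9 to 145 CPM in both-gene cells and 0.865 to 34.2 CPM in Gfi1-only cells. Its ranges overlap, and it was higher in 5 of 5 sets (2.43, SE 0.44, adjusted p = 0.0358). The SDs over sets hold the differences between days. Here and below, means of both-gene and Irf8-only cells hold day 14 (n = 6 sets), while those of Gfi1-only cells leave it out (n = 5 sets). The printed means therefore cover unlike sets, and the log2 fold changes come from the fit with the set term.

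Other genes higher in both-gene than in Gfi1-only cells were Ifi209, an interferon-inducible gene of the p200 family (42.6 ± 41 against 3.20 ± 6.07 CPM, adjusted p = 0.0131), and Ighm, the IgM heavy chain (165 ± 68.9 against 40.7 ± 35.6 CPM, adjusted p = 0.0269). Spp1, which encodes osteopontin, averaged 22.8 ± 15.9 CPM in both-gene cells and 4.21 ± 3.74 CPM in Gfi1-only cells (adjusted p = 0.0194). Il6st, the signalling chain of the IL-6 receptor family, averaged 20.7 ± 10.3 CPM in both-gene cells and 3.26 ± 2.19 CPM in Gfi1-only cells (higher in 4 of 5 sets, adjusted p = 0.0471). Fcer1g, an Fc receptor chain, Cybb, an NADPH oxidase subunit, and Unc93b1, which escorts Toll-like receptors, rose by 0.95, 1.29 and 1.26 on the log2 scale (adjusted p = 0.0234, 0.0335 and 0.00928). These 3 genes, and below Ms4a6c, Emb, Ctsh, Tifab, Fcnb, S100a9, Ctla2a and Btg1, were picked after their values were seen.

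Of the 6 genes lower in both-gene than in Gfi1-only cells, Srgn is one that was higher than in Irf8-only cells. It averaged 1955 ± 525 CPM in both-gene cells and 2996 ± 752 CPM in Gfi1-only cells, lower in 5 of 5 sets (log2 fold change −0.71, SE 0.08, adjusted p = 0.00281). Cd63, a membrane protein of azurophil granules and lysosomes, averaged 136 ± 60.7 CPM in both-gene cells and 339.8 ± 191 CPM in Gfi1-only cells (−1.45, SE 0.26, adjusted p = 0.0365). Cd63-ps, called with it at −1.43, is a near-identical copy whose reads cannot be separated. Baz1a, a chromatin remodelling subunit, and Elovl5, a fatty acid elongase, fell by 0.67 and 0.65 on the log2 scale (adjusted p = 0.0437 and 0.0480). Prg2, which encodes a granule protein of eosinophils, was the sixth. It had 34 reads in 10 both-gene cells and 7625 in 11 Gfi1-only cells, and 1 cell held 55.2% of those 7625, so its call rests on few cells.

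Leaving out 1 set changed how many of these genes were called. The total of 35 became 6 without day 0, 5 without the first day 8 set, 16 without the second, 7 without day 10, 28 without day 12 and 26 without day 14, while Ly86, F13a1 and Srgn were called in all 6 of these fits, and Ctss in all but that without the first day 8 set (adjusted p = 0.0726). Ccr2 kept its call in 4 of the 6 fits, Ifi209 and Spp1 in 3, and Ighm and Cd63 in 2. Csf1r kept its call only without the second day 8 set, with log2 fold changes of 2.08 to 2.93, Il6st in 1 fit, and Baz1a and Elovl5 in 0.

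**Figure D3:**
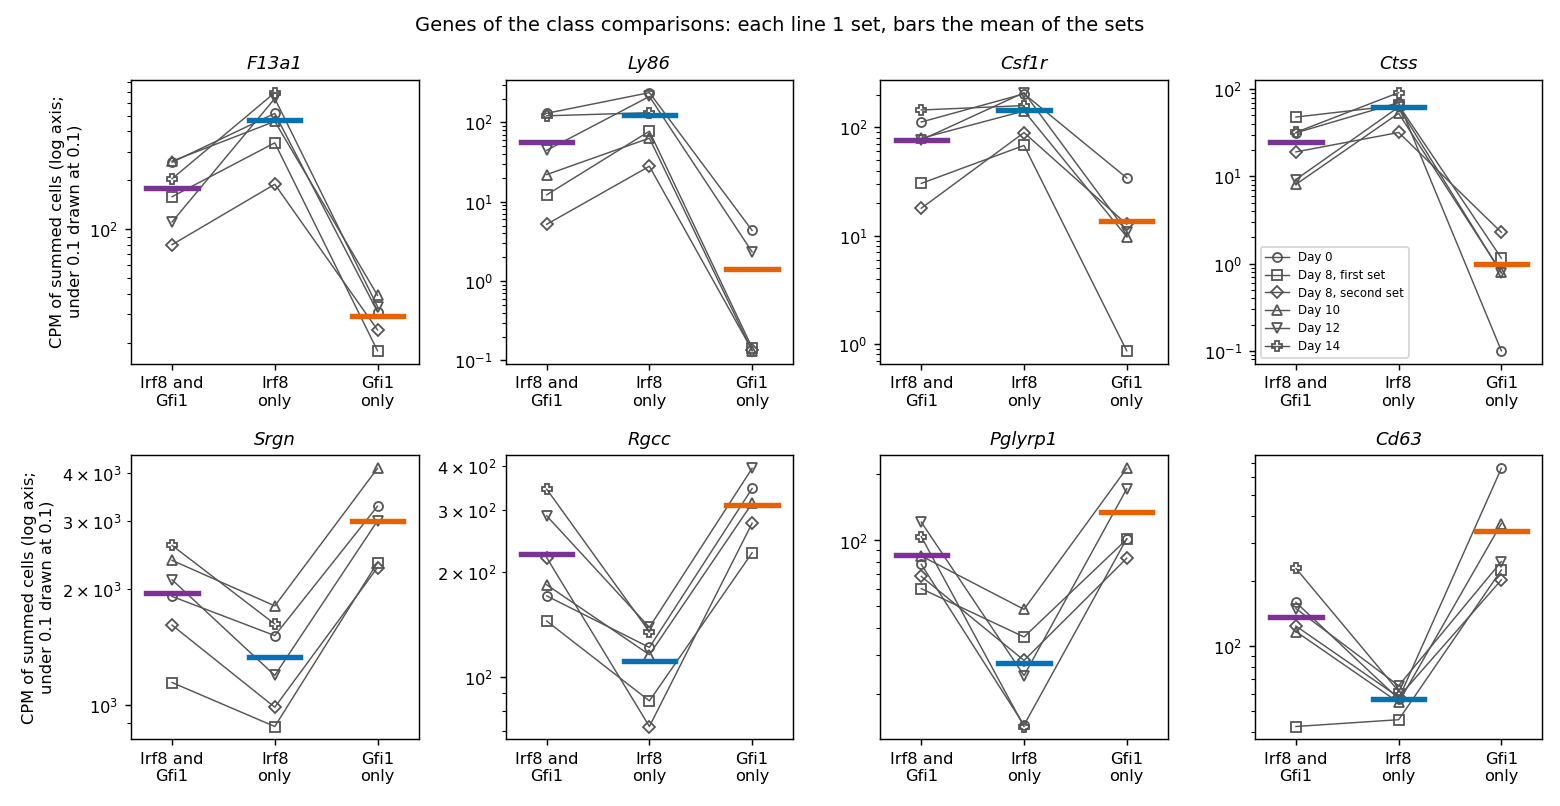
CPM of cells summed by class and set, on log axes, for 8 genes, with 1 line a set (the day 14 line stops at Irf8-only cells, since 4 Gfi1-only cells were too few) and bars for the mean over sets. F13a1, Ly86, Csf1r and Ctss stand lowest in Gfi1-only cells, while Srgn, Rgcc and Pglyrp1 are higher in both-gene than in Irf8-only cells in every set.

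Of 19 monocyte and macrophage priming genes tested, 1 was lower in both-gene than in Irf8-only cells (F13a1) and 0 were higher, with a median log2 fold change of −0.95. Against Gfi1-only cells 7 were higher (Csf1r, Ly86, Ccr2, Ms4a6c, F13a1, Emb and Ctss) and 0 lower, with a median of 1.59. The medians over all genes tested were −0.01 and 0.03 in the same comparisons. Ly6c2, a surface antigen of monocytes, averaged 2574 ± 1982 CPM in both-gene cells and 1038 ± 1086 CPM in Gfi1-only cells (1.24, adjusted p = 0.0697). Across the alternatives, 2 to 12 of these genes were called higher than in Gfi1-only cells. Against Irf8-only cells 0 to 9 were called lower, with 0 whenever 1 set was left out and 9 without the filter on low counts.

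Of 13 primary granule and granulocyte priming genes tested, 0 were called against Irf8-only cells, with a median log2 fold change of 0.36, and 12 had a positive value. Against Gfi1-only cells 1 was lower (Cd63), with a median of −0.35. Nkg7, a granule membrane protein, averaged 1060.4 ± 396 CPM in both-gene cells, 585 ± 169 CPM in Irf8-only cells and 1530.2 ± 546 CPM in Gfi1-only cells (0.83 over Irf8-only, adjusted p = 0.0522). Ctsg, the protease cathepsin G, averaged 10518 ± 2149, 7226 ± 2121 and 13069 ± 3612 CPM in the same classes (0.57, adjusted p = 0.117). Ms4a3, a granulocyte-progenitor membrane protein, averaged 1737 ± 314, 1150.0 ± 491 and 2411 ± 599 CPM (0.65, adjusted p = 0.117). Elane, neutrophil elastase, averaged 13028 ± 9157, 9194 ± 6515 and 14030.1 ± 8745 CPM (0.61 over Irf8-only, adjusted p = 0.611). Each of these 4 had its middle mean in both-gene cells without passing the test. Across the alternatives, 0 to 8 of the 13 were called higher than in Irf8-only cells, with 8 without the filter on low counts, and 0 to 6 lower than in Gfi1-only cells.

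Transcription factors of the 2 lineages were not called in either comparison. At the shares called over all genes, 0.23% at most in either direction, 0 calls are usual for lists of this size. Besides Irf8, 9 monocyte and dendritic regulators were tested, with median log2 fold changes of −0.27 over Irf8-only and 0.48 over Gfi1-only cells. Spi1, which encodes PU.1, averaged 262 ± 19.4 CPM in both-gene cells, 299.7 ± 70.5 CPM in Irf8-only cells and 317 ± 63.8 CPM in Gfi1-only cells (−0.17, adjusted p = 0.938, and −0.21, adjusted p = 0.736). Irf5, another interferon regulatory factor, averaged 15.4 ± 11.7 CPM in both-gene cells and 1.30 ± 1.77 CPM in Gfi1-only cells (3.31, adjusted p = 0.0999). Klf4, a monocyte regulator, had a read in 7.45% of both-gene cells and averaged 2.04 ± 2.02 CPM. Of 11 granulocyte regulators besides Gfi1, the median fold changes were 0.12 and −0.27. Cebpe, which drives terminal granulocyte maturation, averaged 22.5 ± 11.3 CPM in both-gene cells, 9.06 ± 5.89 CPM in Irf8-only cells and 65.5 ± 40 CPM in Gfi1-only cells. It was higher than in Irf8-only cells in 6 of 6 sets (1.33, adjusted p = 0.289) and lower than in Gfi1-only cells in 5 of 5 (−1.58, adjusted p = 0.0697). Myb, a regulator of progenitor growth, had 0.56 over Irf8-only cells (adjusted p = 0.279) and −0.40 over Gfi1-only cells (adjusted p = 0.426).

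**Figure D4:**
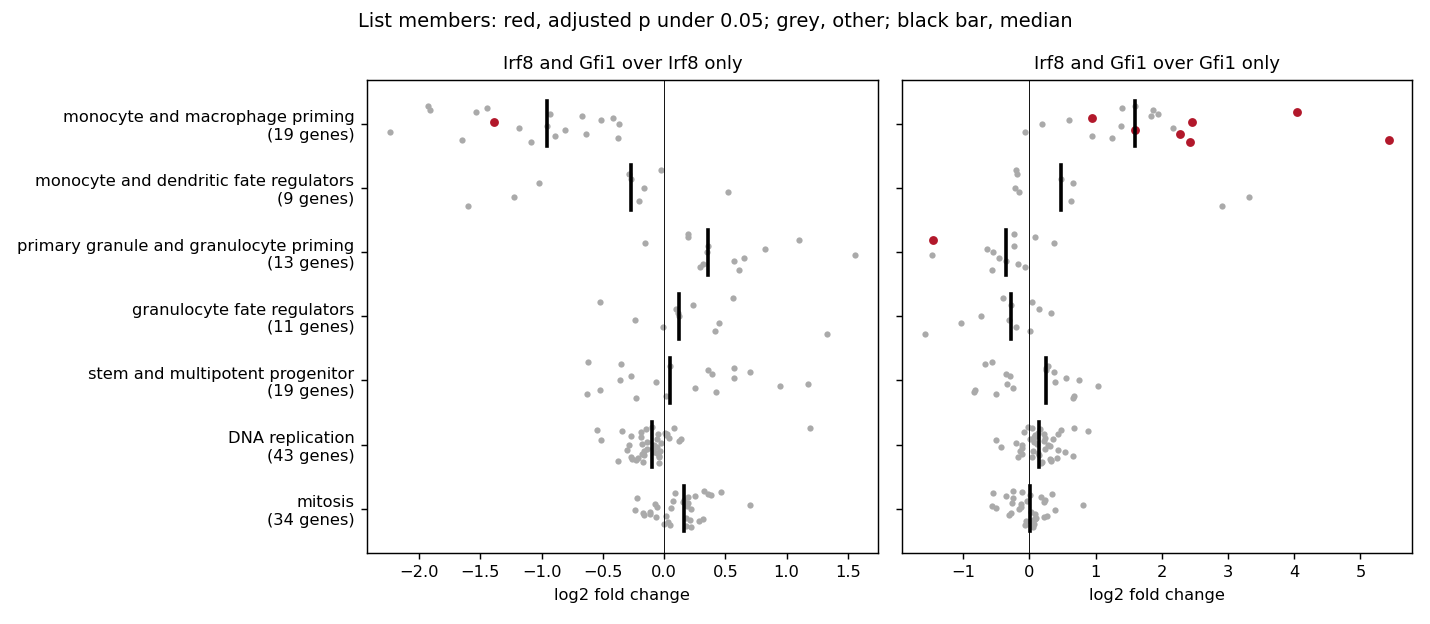
Log2 fold changes of the tested members of the priming, fate regulator, stem, DNA replication and mitosis lists. Both-gene cells are set over Irf8-only cells (left) and over Gfi1-only cells (right), with called genes in red and the list median as a black bar. The monocyte priming median is −0.95 on the left and 1.59 on the right.

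No gene was called higher or lower in both-gene cells than in both single-gene classes by edgeR (0 and 0, with 20 and 29 at an unadjusted p under 0.05 in both comparisons). limma voom called 1 gene, the DESeq2 Wald test 0. The 2 genes called in both comparisons, F13a1 and Srgn, went opposite ways. As a scale, 307 genes differed between Irf8-only and Gfi1-only cells, 178 higher in Irf8-only (1.41%) and 129 lower (1.02%). For 306 of them the both-gene level lay between the single-gene levels, which the choice of these genes partly fixes. The median gene lay 60.8% of the way from Gfi1-only to Irf8-only cells (quartiles 47.1 and 71.9%). It was 66.8% for the 178 genes higher in Irf8-only cells and 49.4% for the 129 lower.

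Calls in the other lists are given beside the shares over all genes tested. Those were 0.0237% higher and 0.00792% lower over Irf8-only cells, and 0.23% higher and 0.0475% lower over Gfi1-only cells. At such shares 0 calls are usual for lists of these sizes and are no result about their genes. Of 15 cytokine receptor genes, 2 were higher than in Gfi1-only cells (Csf1r and Il6st), and of 18 interferon response genes 1 was (Ifi209). Of 7 mast cell, basophil and eosinophil genes, Prg2 was lower. In DNA replication (43 genes), mitosis (34), ribosome biogenesis and Myc (21), stem and multipotent progenitor (19), cell cycle inhibitor and D cyclin (12), beta-catenin (15), stress (15) and late neutrophil (6) genes 0 were called in either comparison. Median log2 fold changes over Irf8-only and Gfi1-only cells were −0.10 and 0.14 for replication, 0.16 and 0.01 for mitosis, 0.22 and 0.10 for ribosome biogenesis and 0.05 and 0.25 for stem genes.

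Markers of other cell types were mostly too low to be tested. Those tested were 2 of 10 for T and NK cells, 3 of 11 for dendritic cells and 7 of 15 for erythroid cells and megakaryocytes. For lymphoid cells they were 2 of 11 and for stroma 4 of 9. Of these markers 0 were called, which with so few tested is no sign that such RNA was absent. The 10 T and NK cell markers summed to 4.30 to 15.2 CPM in both-gene cells, 2.52 to 13.6 CPM in Irf8-only cells and 0.777 to 11.1 CPM in Gfi1-only cells by set, with Cd8a and Ncr1 at 0 in both-gene cells of every set. The 11 dendritic cell markers, Flt3 among them, summed to 79.4 to 112 CPM in both-gene cells, 78.8 to 198 CPM in Irf8-only cells and 59.4 to 96.5 CPM in Gfi1-only cells, with H2-Eb1 at 0 in both-gene cells of every set. The 15 erythroid and megakaryocyte markers summed to 290.3 to 396 CPM, 182 to 435 CPM and 286 to 409 CPM in the same classes, the 11 lymphoid markers to 42.9 to 108 CPM, 50.1 to 214 CPM and 16.3 to 52.1 CPM, and the 9 stromal markers to 58.4 to 80.1 CPM, 63.8 to 107 CPM and 46.1 to 103 CPM. The 14 mast cell, basophil and eosinophil markers, with Prg2 among the genes called above, summed to 185 to 570 CPM in both-gene cells, 145 to 680.5 CPM in Irf8-only cells and 278 to 3463 CPM in Gfi1-only cells. Doublets were not called, so a well with 2 cells cannot be told apart from 1 cell with both genes, and its part in the results was not tested.

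How often single cells carried a gene of each lineage together depended on the pair, of which 6 were examined. F13a1 and Pglyrp1 were both at 10 CPM or more in 51.6% of both-gene cells (83 of 161, exact 95% interval 43.6 to 59.5%), 32% of Irf8-only cells (25.5 to 39%) and 31.7% of Gfi1-only cells (21.9 to 42.9%). Csf1r and Cebpe were both at that level in 25.5% (18.9 to 32.9%), 10.8% (6.83 to 16.1%) and 15.9% (8.72 to 25.6%) of the same classes. Csf1r with Elane gave 59%, 68% and 19.5%, and Ly86 with Elane 30.4%, 61.9% and 1.22%. Ly86 with Cebpe gave 8.07%, 6.70% and 1.22%, and Klf4 with Cebpe 1.86%, 1.55% and 0%. The first 2 pairs were most frequent in both-gene cells and the Elane pairs in Irf8-only cells, while the last 2 were rare in all 3 classes. The intervals pool the cells of all sets and cover counting error only. By set, F13a1 with Pglyrp1 ranged over 33.3 to 66.7%, 25 to 54.2% and 28.6 to 36.4% in the 3 classes. Csf1r with Cebpe ranged over 8.33 to 35.7%, 6.45 to 18.2% and 0 to 44.4%. F13a1 and Pglyrp1 are also among the genes called above, so their pair is no separate evidence. These shares were not tested over sets. F13a1 had a read in 75.8%, 80.9% and 59.8% of both-gene, Irf8-only and Gfi1-only cells, and Pglyrp1 in 83.9%, 53.6% and 90.2%. For Csf1r the shares were 74.5%, 76.3% and 46.3%, and for Cebpe 59%, 27.3% and 80.5%. The share that independent calls of a pair's genes would give was not set beside the pairs. The pairs thus do not show more joint expression than their genes give singly. Median reads in genes were 1.28 times as many in both-gene as in Irf8-only cells.

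Within the both-gene class, other genes were set beside the ratio of Irf8 to Gfi1. Over 161 cells, with each set centred on its own median, Spearman's rho of the log ratio was 0.54 with the summed monocyte priming genes (0.19 to 0.62 by set), 0.52 with Ly86 and 0.48 with F13a1. It was −0.15 with the summed primary granule genes (−0.49 to −0.01 by set). Among single genes it was −0.48 with Cebpe, −0.41 with Pglyrp1, −0.37 with Ms4a3, −0.18 with Elane and 0.42 with Csf1r. It was 0.30 with DNA replication genes, 0.19 with stem genes, 0.17 with mitosis genes and 0.24 with reads in genes. These are descriptions over cells that share libraries and depth. The median of the ratio was lowest on day 12, at −0.21 on the log2 scale, and highest on day 14, at 2.58.

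The both-gene cells also differed by day. In a fit of their 6 sums alone, where 1 residual degree of freedom comes from the day 8 sets and other days are assumed to vary like them, 38 genes were higher (0.265% of 14314) and 91 lower (0.636%) on day 8 than on day 0. Day 10 gave 9 higher (0.0629%) and 11 lower (0.0768%), day 12 gave 1 (0.00699%) and 3 (0.021%), and day 14 gave 13 (0.0908%) and 24 (0.168%). All comparisons share the 1 day 0 set, and days 10, 12 and 14 had 1 set each. edgeR drew the spread of each gene toward a value shared by genes. That value weighed 80.4 degrees of freedom against 1 from the sets. The p-values by day thus rest mainly on a spread pooled over genes, and their small size does not stand for replicate sets. With at least 3 reads of each gene required of a cell, the calls were 1 on day 8 and 0 on days 10, 12 and 14. Nearly all calls below were thus lost under that rule, and why was not tested. At an unadjusted p under 0.05 in edgeR's test, day 8 had 1339 genes under that rule and 1612 without it. The day 8 medians moved little under that rule, to −1.03 in place of −1.09 for monocyte priming genes and −0.37 under either for primary granule genes. Without Slc34a2 in the counts, and with the cells classed anew, the calls were 45, 11, 0 and 8 on days 8, 10, 12 and 14.

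Monocyte priming genes were low in both-gene cells on day 8. Ly86 had 129.7 CPM (day 0), 12.4 and 5.22 CPM (day 8), 22.4 CPM (day 10), 44.8 CPM (day 12) and 118 CPM (day 14), scaled over these 6 sums alone. Both day 8 sets lay below every other day. The log2 fold change over day 0 was −3.87 on day 8 (SE 0.45, edgeR adjusted p = 2.11e-09) and −2.54 on day 10 (SE 0.55, adjusted p = 0.0149). Csf1r had 112, 30.8, 18, 80.7, 77.1 and 141 CPM in the same order and fell on day 8 (−2.19, SE 0.40, adjusted p = 0.000307). Of the 19 list genes tested, 5 fell on day 8 (Csf1r, Ly86, Ly6c2, Ctsh and Tifab) and 0 rose, with a median of −1.09 against 0.04 over all genes.

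Of 13 primary granule genes, Elane and Fcnb, which encodes a ficolin, fell on day 8 and 0 rose, with a list median of −0.37. In day order Elane had 18387, 2836, 3257, 10587, 17522 and 25079 CPM (day 8 log2 fold change −2.59, SE 0.40, adjusted p = 8.32e-06). Fcnb changed by −4.09 (SE 0.84, adjusted p = 0.00217). Mpo and Ctsg had −1.11 and 0.01 and were not called (adjusted p = 0.256 and 0.998). Among 6 late neutrophil genes the directions were mixed. Lcn2, lipocalin, had 18.6, 81, 133, 164, 34.7 and 57.1 CPM and rose on day 8 (2.52, SE 0.47, adjusted p = 0.000483) and day 10 (3.14, SE 0.52, adjusted p = 9.4e-05). S100a8, a calcium-binding protein of neutrophils, had 93.3, 12.2, 5.84, 14.4, 323 and 28.6 CPM and fell on days 8 and 10 (−3.36, SE 0.41, adjusted p = 7.83e-09, and −2.69, SE 0.51, adjusted p = 0.00184), and S100a9 and Lyz2 fell on day 8.

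Some genes of immature progenitors rose. Of 21 stem and multipotent progenitor genes tested, Ifitm1 and Ctla2a were higher on days 8 and 10 and 0 were lower. Ifitm1, an interferon-induced membrane protein of stem cells, had 23.5 CPM at day 0, 437 and 826 CPM in the day 8 sets, and 619, 38.7 and 83.8 CPM on the 3 later days. Its log2 fold changes were 4.75 (SE 0.51, adjusted p = 1.36e-10) and 4.72 (SE 0.53, adjusted p = 5.31e-10). Emilin2, an extracellular matrix glycoprotein, had 15.3, 133, 153, 116, 39.8 and 41.6 CPM, with changes of 3.23 on day 8 and 2.93 on day 10 (adjusted p = 3.53e-06 and 0.00029). Ccnd1, cyclin D1, had 0.559, 44.9, 16.4, 8.97, 3.42 and 0 CPM (day 8 change 5.74, SE 1.15, adjusted p = 0.0015), and the cell cycle inhibitor Cdkn1a rose by 2.65 (SE 0.71, adjusted p = 0.0440). Btg1, an antiproliferative gene of the same list, fell (−2.47, SE 0.62, adjusted p = 0.0263), so that 2 of 12 tested cell cycle inhibitor and D cyclin genes rose and 1 fell.

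**Figure D5:**
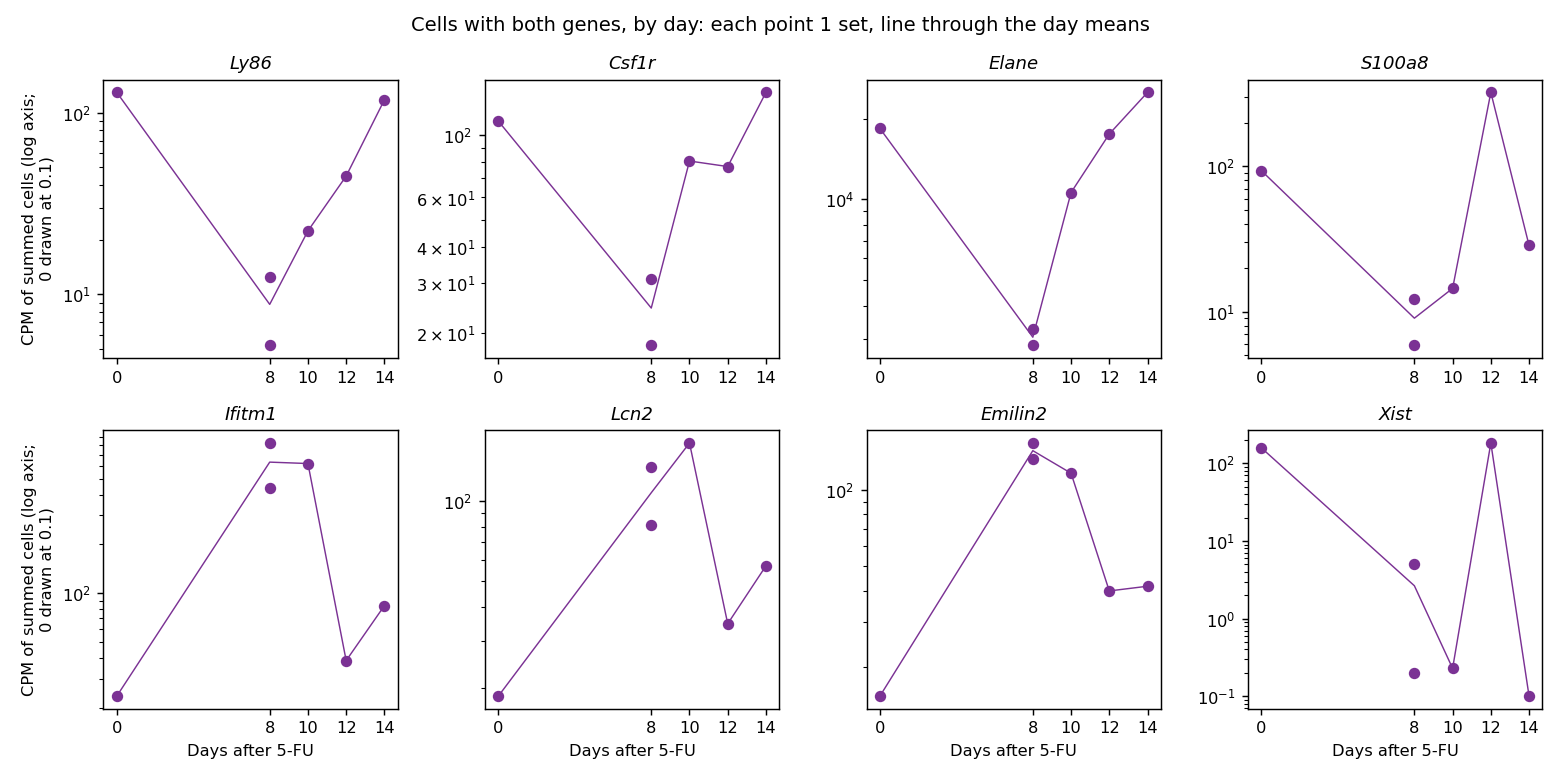
CPM of both-gene cells summed by set, on log axes, against days after 5-FU, for 8 genes, with 1 point a set and a line through the day means. Ly86, Csf1r, Elane and S100a8 are lowest and Emilin2 highest in the day 8 sets, Ifitm1 has 437 and 826 CPM there and 619 CPM on day 10, while Xist is near 0 in the day 8, 10 and 14 sets.

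Xist was called lower and Eif2s3y higher on days 8, 10 and 14 than on day 0, and 9 of the 129 day 8 calls lie on the sex chromosomes (7 on X and 2 on Y). Xist had 158, 0.200, 5.10, 0.228, 183 and 0 CPM in day order. Its day 8 change, with the second set of that day left out, was −9.52 on the log2 scale in place of −5.95. On day 14, Vwa8, Tgfbi, Slc30a6 and Zfp825 also had 0 reads. Setting day 14 to 3 reads over the set, they were at least 26.7-fold, 15.5-fold, 12.8-fold and 12.7-fold lower than on day 0, and Xist at least 84.9-fold lower. These bounds cover counting error only and hold for these 15 cells. Across 9 alternatives Vwa8 was called in 6, Slc30a6 in 4, Tgfbi in 3 and Zfp825 in 1, with log2 changes as small as −1.75 for Tgfbi and −2.41 for Zfp825.

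Whether the day 8 change differed between both-gene cells and the mean of the single-gene classes was tested as an interaction. edgeR called 0 of 12632 genes (0%), with 999 at an unadjusted p under 0.05, limma voom called 0 and the DESeq2 Wald test 1. The fit had 2 residual degrees of freedom. No day 8 change was thus shown to be particular to both-gene cells.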

How the data were processed

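Reads were aligned with GSNAP 2015-09-29 to mm10 and counted with HTSeq 0.5.3p3, per the submitters' processing notes. The deposited values are raw counts per gene and cell, and per the labels the libraries (Smart-seq2, Nextera XT) mark neither strand nor molecule. Rows that name no gene held a median of 90.4% of the reads of kept cells and were left out. 1 column was not used. No doublet caller was run.

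Cells were classed by CPM as described above. Counts were summed by set and class (sums of at least 5 cells) and compared with edgeR 4.0.16 in R 4.3.3 by its quasi-likelihood test, with TMM scaling, its filter on low counts and set as a term. Irf8 and Gfi1 were not tested. Alternatives used limma 3.58.1 and DESeq2 1.42.0. Cell measures used Python 3.11.15, pandas 2.3.3 and scipy 1.17.1. The fits were run on simulated counts with the same spread for every gene and changes planted only in genes above a minimum mean count. That run does not cover genes with few reads or with reads from few cells.

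The members and lists were chosen with earlier results of these data known. Named genes were the 8 largest called rises and falls of each class comparison and the 5 largest of each day comparison (a read in at least 20% of cells, at least 20 CPM and the same sign in at least 5 of 6 sets), up to 4 members a list by p, and a fixed set of regulators and lineage genes. Coordinates are those of GRCm38. At the locus of Gfi1 lies an antisense gene, and Gm20388 spans Irf8 on the same strand, so reads there may be lost or shared.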

Additional observations from a re-analysis of the deposited data

How the results depend on the processing

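Counts of called genes moved with the settings. For both-gene over Irf8-only cells the 4 calls became 0 at 20 CPM, with at least 10 cells a sum, in deep cells (at least 200000 reads and 2000 genes), with the cells of neither gene as a class in the fit, without the set term and with classes from thinned cells, 1 with at least 3 reads of each gene, 29 by limma voom, 31 in thinned sums, 69 by the DESeq2 Wald test, 110 without the filter on low counts and 0 to 1 with 1 set left out. Over Gfi1-only cells the 35 became 3 at 5 CPM, 5 with that added class, 12 in deep cells, 18 without Slc34a2, 21 with thinned classes, 54 by voom, 56 in thinned sums, 235 by the Wald test, 273 without the filter and 5 to 28 with 1 set left out. Between the single-gene classes the 307 became 78 in deep cells, 116 with the added class, 164 without the set term, 174 with at least 10 cells a sum, 204 at 5 CPM, 510 by voom, 706 without the filter, 807 by the Wald test and 149 to 269 with 1 set left out. Genes called the same way against both classes numbered 1 by voom and 7 without the filter, in place of 0. The interaction gave 1 call by the Wald test, 1 without Slc34a2, 4 in thinned sums and 72 without the filter, in place of 0.

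By day, the 129 calls of day 8 became 1 with at least 3 reads, 34 at 20 CPM, 265 at 5 CPM, 48 by the Wald test, 60 by voom, 82 with DESeq2 size factors, 84 in deep cells, 45 without Slc34a2 and 75 in thinned sums. The 20 of day 10 became 0 with at least 3 reads, 68 at 5 CPM, 8 by the Wald test, 12 by voom, 11 in deep cells and also 11 without Slc34a2, and 9 in thinned sums. The 4 of day 12 became 0 with at least 3 reads, with size factors, by voom and without Slc34a2, 32 at 5 CPM, 2 by the Wald test, 22 in deep cells and 9 without the filter. The 37 of day 14 (13 higher, 24 lower) became 13 at 20 CPM, 0 with at least 3 reads, 101 at 5 CPM, 6 by the Wald test, 22 with size factors (10 higher, 12 lower), 5 by voom and 8 without Slc34a2 (2 higher, 6 lower).

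The share of both-gene cells at 5 CPM was 43.5% (day 0), 35.6% (first day 8 set) and 58.1% (day 10). At 20 CPM it was 15.6% and 11.8% (day 8), 29% (day 10) and 18.8% (day 12). It was 34.4% on day 10 with at least 3 reads. In deep cells of day 14 it was 50%, which is 2 of 4 cells (exact 95% interval 6.76 to 93.2%). In deep cells AA474408 and Mir6236 had day 10 changes of 0.81 and 1.22 in place of −6.05 and −3.86, and Prg2 had 8.67 at 5 CPM and 0.49 without Slc34a2 in place of −8.94 against Gfi1-only cells. The cause was not tested. Of the other values of single genes under the alternatives, 4656 kept direction and side of the threshold, 294 lost it, 139 passed it and 3 moved in size. The 4656 include values of genes that were not called and had no call to lose. Among called genes, F13a1 and Pglyrp1 kept their calls over Irf8-only cells in 6 of 20 alternatives. Over Gfi1-only cells, Ly86 kept its call in 20 of 20, and Baz1a and Elovl5 in 5 of 20.

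No paired analysis was possible because the replicate numbers of the labels name wells, so none could serve as a block. The set was used as the block instead, in the class fits and in the sign-flip tests. The interaction could not be fitted at 5 CPM, in deep cells, with at least 10 cells a sum or without a day 8 set, and day comparisons without a day 8 set gave fold changes only. Depth limits day 14 most, with 15 both-gene cells. The requirement of 3 reads was added after the data were seen.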

Other observations

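Of 10 mast cell, basophil and eosinophil genes tested by day in both-gene cells, 2 were lower on day 8 than on day 0 (Cpa3 and Prss34), 0 on day 10, and 1 each on days 12 and 14 (Prss34). None of the 10 was called higher. Cpa3, a mast cell carboxypeptidase, had 199, 9.48, 30.4, 67.2, 47 and 188 CPM on day 0, in the day 8 sets and on days 10, 12 and 14. The day 8 change over day 0 was −3.33 on the log2 scale (SE 0.42, edgeR adjusted p = 1.12e-08). Prss34, a protease of basophils and mast cells, had 53.8, 0, 0, 5.85, 0.285 and 0 CPM in the same order. Gata2, a transcription factor of these lineages and of stem cells, had 37.6, 9.38, 27, 14.8, 41.6 and 2.48 CPM and fell on day 14 (−3.91, SE 0.97, adjusted p = 0.0493). Cpa3 and Prss34 were picked after their values were seen.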
